A study of Mus musculus with 20 samples.

Results

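The replication-dependent histone genes of the mouse brain were described by class in total and polysomal RNA of control and spinal muscular atrophy (SMA) mice. Members were the rows of the deposited table that were annotated as protein-coding, carried a symbol beginning with Hist1h to Hist4h and reached a mean of 1 FPKM (fragments per kilobase of transcript, relative to all fragments mapped) over the 20 libraries. Of 68 protein-coding histone symbols, 55 reached that level and 13 stayed under it, so that members were chosen by their mean FPKM and their levels are given as a description only. By class the members were 5 H1, 12 H2A, 15 H2B, 11 H3 and 12 H4 genes. By cluster they were 45 genes of Hist1 on chromosome 13, 7 of Hist2 on chromosome 3, 2 of Hist3 on chromosome 11 and 1 of Hist4 on chromosome 6. They were tested together with all 15247 genes that passed the same minimum, of 45700 rows in all.

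SMA mice were of the "Taiwanese" line (Smn-/-; SMN2tg/0), which has no functional mouse Smn gene and carries the human SMN2 transgene on 1 allele. Unaffected littermates that kept 1 mouse Smn allele (Smn-/+; SMN2tg/0) served as controls, so that both genotypes carried SMN2 and were on the congenic FVB background. Whole brains were taken untreated at the early-symptomatic stage (P5, 2 replicates of each genotype and RNA fraction) and at the late-symptomatic stage (P7, 3 replicates). Libraries were made of total cytoplasmic RNA, pooled from all sucrose fractions (the transcriptome), and of polysomal RNA, pooled from the polysomal fractions (the translatome). The Smn1 row did not separate the genotypes, with 9.71 and 8.92 FPKM in the control libraries, against 9.55 and 10.09 FPKM in the SMA libraries, of total RNA at P5. The knockout allele of this line removes only part of the gene and SMN2 transcripts resemble those of Smn1, so a value over the whole gene checks no label. Brain markers were present in total RNA (Snap25, a synaptic protein, 217 and 222 FPKM in the P5 control libraries) and the liver gene Alb stayed at 0.19 FPKM or less in all 20 libraries.

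Replication-dependent histone genes supply the core histones H2A, H2B, H3 and H4, and the linker histone H1, that package newly copied DNA, and their transcription is tied to S phase. Their mRNAs as a rule have no poly(A) tail. They end just after a conserved stem-loop that is bound by the stem-loop binding protein SLBP and is needed for 3′ end formation, which also uses the U7 snRNP, for translation and for rapid decay when DNA synthesis stops. Some of the genes also yield polyadenylated transcripts that run past the stem-loop in cells that no longer divide. The libraries were made from total RNA without poly(A) selection, so that both forms could be captured.

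The stem-loop is the feature that sets these mRNAs apart, and its letters differed by class. The pattern GGC, any base, CTTTT, any base, AG, any base, GCC was searched on the sense strand of Gencode M21 transcripts (GRCm38). It was found in 33 of the 53 members with a matched transcript and in 0.0848% of all 55450 genes searched. Hist1h2bm and Hist1h2bh had no matched transcript and were not searched. Many of the other members have a gene model that stops at the coding region, so the absence of the letters there says nothing of the mRNA. The highest member of each class with the letters is shown together with Hist4h4, with 7 bases on either side and the stem-loop in capitals.
Hist1h1e (H1): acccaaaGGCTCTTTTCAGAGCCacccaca
Hist3h2a (H2A): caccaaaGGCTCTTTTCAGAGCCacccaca
Hist3h2ba (H2B): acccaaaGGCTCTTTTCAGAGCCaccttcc
Hist1h3a (H3): aaccaaaGGCTCTTTTCAGAGCCacacacg
Hist1h4d (H4): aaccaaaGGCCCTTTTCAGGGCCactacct
Hist4h4 (H4): ccacaaaGGCCCTTTTCAGGGCCcacaaag
All 8 H4 members with the pattern had a stem that opened with GGCCC and closed with GGGCC, whereas all 25 others had GGCTC and GAGCC. Within the loop side, 19 of those 25 carried the letters TTTTCAG and 5, of which 2 were H2B and 3 were H3 genes, carried TTTTAAG. The stem-loop of Hist1h4d lies at chr13:23581950-23581965 on the plus strand, and that of Hist1h1e at chr13:23621782-23621797 on the minus strand.

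Promoters differed by class as well, and the octamer, a motif known from histone H2B promoters, is shown because it divided the classes. In RefSeq promoters (GRCm38.p6, 250 bases before to 50 after the start, both strands), 49 members were matched. The octamer ATTTGCAT was in 5 of 11 H2A and 6 of 13 H2B promoters, in none of the H1, H3 or H4 promoters, and in 1.74% of all promoters. Those of Hist2h2bb at chr3:96269641-96269670, Hist1h2bb at chr13:23746633-23746662 and Hist1h2bk at chr13:22035780-22035809, all on the plus strand, are shown with the octamer in capitals.
Hist2h2bb: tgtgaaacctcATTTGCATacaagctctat
Hist1h2bb: ttgagtctcttATTTGCATaaagcctttga
Hist1h2bk: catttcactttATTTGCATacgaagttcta
The CCAAT letters were in 41 of the 49, which left out only 8 of 11 H4 promoters, against 37.4% of all promoters. The TATAAA letters were in 30 of the 49, against 13.6%. A match describes the letters only, and these motifs were not searched elsewhere. Some H2A and H2B genes lie head to head, so that 1 octamer may be counted in 2 promoters. Hist1h2ae, for example, starts at chr13:23571121 on the minus strand and Hist1h2bg at chr13:23571408 on the plus strand, and both were counted.

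Levels differed widely between classes and within them. On the FPKM scale, which is per length, the median of the member means was 68.1 for H1, 66.4 for H4, 32.5 for H2B, 9.78 for H2A and 8.08 for H3. These means pool all 20 libraries, so that an order need not hold within a group. In control total RNA the mean H1 sum was 578.5 FPKM at P5 and 225 FPKM at P7, against 1988 and 1612 FPKM for H4. The highest member was Hist1h4d (ENSMUSG00000061482.6, chr13:23581598-23581990), a gene for H4, with a mean of 767 FPKM. It was followed by Hist2h2bb (ENSMUSG00000105827.1), a gene for H2B with 400 FPKM, Hist1h4c with 303 FPKM and Hist1h4f with 259 FPKM. The highest H1 members were Hist1h1e (102 FPKM), Hist1h1d (83.7 FPKM) and Hist1h1a (68.1 FPKM), each a gene for a linker histone. Their group means in P5 control polysomal RNA had another order, with 153, 193 and 180 FPKM. The highest H3 members were lower, Hist1h3a with 23.1, Hist1h3d with 18.7 and Hist1h3c with 18.4 FPKM, and the highest H2A members were Hist3h2a (43.0), Hist1h2al (32.2) and Hist1h2ab (25.5 FPKM). Just inside the minimum were Hist2h2be (1.23 FPKM) and Hist2h3c2 (1.20 FPKM), and just outside it were Hist1h2ai (0.882 FPKM) and Hist1h2ah (0.662 FPKM). Since the genes of a class code for nearly the same protein, part of their sequence is shared. A median of 31.8% of the 100-base windows of a member also occurred in another gene, 15 members shared 50% or more, and 5 (Hist1h1a, Hist1h1b, Hist2h2be, Hist1h4d and Hist2h4) shared none, so that the values of single copies are less certain than class sums.

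Some H2A rows carried a further uncertainty. Of 11 predicted miRNA rows on the opposite strand that share the listed locus of an H2A gene, 7 are listed at 0 in all 20 libraries. The other 4 (at Hist3h2a, Hist1h2ak, Hist1h2af and Hist2h2ac) are not. The row at the locus of Hist3h2a had a mean of 1379 FPKM where Hist3h2a itself had 43.0 FPKM. That locus is a merged stretch of 23366 bases, so that an overlap with Hist3h2a itself is not shown. The row inside Hist1h2ak had 115 FPKM against 9.61 FPKM for Hist1h2ak. The study states default program settings and names no strand option, so reads of such pairs may not have been told apart. Hist2h2bb and Hist2h3b likewise shared 1 locus with an antisense row (Gm20628, 15.8 FPKM). Hist2h2ab (7.20 FPKM) shared a listed locus of 23721 bases with Bola1 on the opposite strand (15.6 FPKM). Hist1h2al (chr13:51202688-51203065), for which the study lists primers, is typed as a processed pseudogene in the later Gencode M21, and its P5 control libraries were far apart (32.9 and 11.4 FPKM in total, 181 and 81.0 FPKM in polysomal RNA).

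At P5, all 5 classes were higher in the polysomal RNA of control brains than in that of SMA brains, with no overlap. Summed over the class, H4 stood at 3169 and 3360 FPKM in control, against 1858 and 1722 FPKM in SMA polysomal RNA. H2B stood at 2116 and 2071 FPKM against 1057 and 979 FPKM. For H1 the sums were 700.3 and 780 FPKM against 407 and 403 FPKM, for H2A 512 and 393 against 209 and 153 FPKM, and for H3 283 and 316 against 136 and 115 FPKM. In total RNA the P5 groups were closer. H1 sums were 503 and 654 FPKM in control, against 366 and 327 FPKM in SMA, and H4 sums were 2163 and 1813 FPKM against 1734 and 1402 FPKM. None of the 5 class sums overlapped between genotypes in P5 total RNA. In bulk tissue, fewer cells that make histone mRNA and less histone mRNA per cell cannot be told apart.

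**Figure D1:**
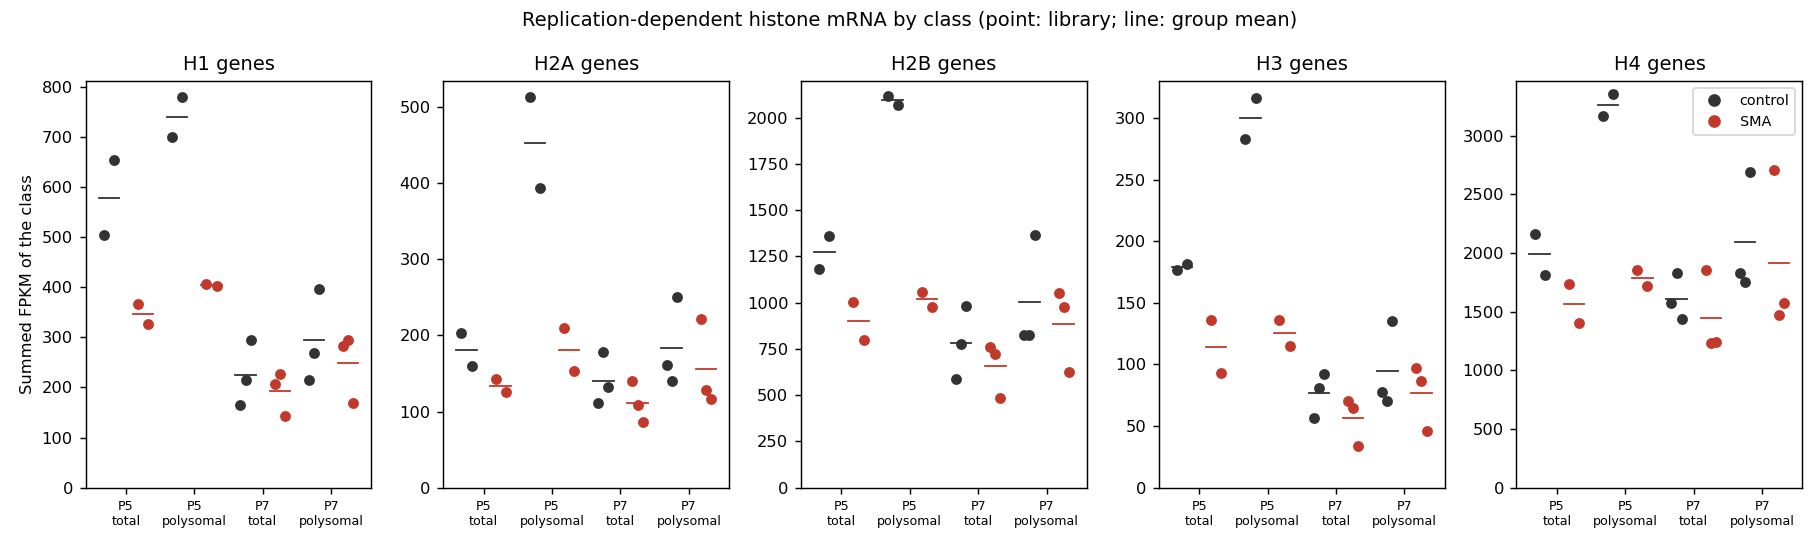
Summed FPKM (y axis, from 0) of the members of each class in each library (points) with group means (lines), for control (dark) and SMA (red) brains at P5 and P7 in total and polysomal RNA. In P5 polysomal RNA the control libraries stand above the SMA libraries in all 5 classes, while at P7 the genotypes overlap in every class.

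Gene by gene, the SMA against control comparison in P5 polysomal RNA had 43 of 55 members lower at an unadjusted limma p under 0.05 and 0 higher, where 6.82% of all 15247 genes were called lower and 5.65% higher. The groups did not overlap, with SMA lower, for 51 members, against 26.6% of all genes. The median log2 change on the log2(FPKM + 0.1) scale, which understates the change of low genes, was -1.13 over the members and -0.01 over all genes tested. By class, 10 of 12 H2A, 12 of 15 H2B, 9 of 11 H3, 9 of 12 H4 and 3 of 5 H1 members were lower, with medians of -1.43, -1.06, -1.13, -1.02 and -1.09. No member passed Benjamini-Hochberg adjustment over all genes, where 0.0525% of all genes were lower and 0.597% higher, and the lowest limma adjusted p of a member was 0.0990. The count stayed between 35 and 41 when any 1 library was left out. It was 42, with a median of -0.98, after a correction for transcript length, which was made because these mRNAs are short.

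The largest called falls among members whose groups did not overlap were in Hist1h2bk, Hist1h2ad and Hist1h3h. Hist1h2bk, a gene for H2B, stood at 94.1 and 84.9 FPKM in control, against 29.5 and 22.1 FPKM in SMA polysomal RNA, a log2 change of -1.80 (SE 0.18, limma adjusted p = 0.16). Hist1h2ad, a gene for H2A, stood at 23.5 and 22.6 FPKM against 8.24 and 5.40 FPKM, a log2 change of -1.77 (SE 0.25, limma adjusted p = 0.30). Hist1h3h, a gene for H3, stood at 42.4 and 27.3 FPKM against 13.0 and 7.92 FPKM, a log2 change of -1.73 (SE 0.37, limma adjusted p = 0.38). By the way the 3 were chosen, the lower control library was above the higher SMA library in each.
The highest members are given next. Hist1h4d, the highest H4 gene, stood at 1137 and 1148 FPKM against 688 and 716 FPKM (log2 change -0.70, SE 0.21), and Hist2h2bb at 828 and 795 against 404 and 404 FPKM (log2 change -1.01, SE 0.14). Of the highest H1 members, Hist1h1d was lower in SMA (184 and 202 against 93.9 and 87.7 FPKM), whereas Hist1h1e, with 121 and 184 against 110 and 103 FPKM, was not called.

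A few members departed from the rest of their class at P5. Hist1h2bc, a gene for H2B, stood at 23.9 and 20.0 FPKM in control, against 23.8 and 20.4 FPKM in SMA polysomal RNA, a log2 change of 0.01 (SE 0.14). Hist3h2ba, also for H2B, stood at 231 and 147 FPKM against 159 and 135 FPKM, and its groups overlapped. Hist3h2a, for H2A, stood at 75.8 and 58.2 against 44.7 and 51.7 FPKM (log2 change -0.47, SE 0.18) and was not called. The low Hist2h3c2 and Hist2h2be rows, with log2 changes of 0.02 and 0.23, were not called either. The other members not called were Hist1h1c, Hist1h1e, Hist1h2al, Hist1h3d, Hist1h4c, Hist1h4n and Hist2h4, which makes 12 in all. A missing call is not by itself a departure from the class. In all 12 H2A and all 12 H4 members the SMA libraries were lower without overlap, against 26.6% of all genes. Among them, Hist1h2al stood at 181 and 81.0 FPKM against 51.0 and 24.35 FPKM. Hist1h1c, an H1 gene whose annotated body runs past the stem-loop, had 67.8 and 81.9 against 66.3 and 60.8 FPKM. The 1 Hist4 member, Hist4h4, moved with the majority, from 64.4 and 52.7 to 31.3 and 32.1 FPKM.

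In P5 total RNA the same direction was seen with fewer calls. Of 55 members, 18 were lower in SMA and 0 higher at an unadjusted limma p under 0.05, against 3.89% and 4.36% of all genes. Members lower in SMA with no overlap between genotypes numbered 39, against 22.5% of all genes. The median log2 change was -0.52 over the members and 0.01 over all genes. The 18 comprised 4 of 5 H1, 3 of 12 H2A, 6 of 15 H2B, 4 of 11 H3 and 1 of 12 H4 members, and all were in the Hist1 cluster. The count depended on single libraries and on how the spread was estimated. It was 10 without control replicate 1, 11 without control replicate 2, 10 with no filter on low genes, and 1 with a single model over all 20 libraries. It was 14, with a median of -0.42, after the length correction. No member passed adjustment, where 0.0656% of all genes were lower and 0.0984% higher, and the lowest limma adjusted p of a member was 0.318 (Hist1h2bf).

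Hist1h2bh, Hist1h1b and Hist1h3b had the largest called falls without overlap in P5 total RNA. Hist1h2bh (H2B) went from 31.3 and 47.4 FPKM in control to 22.0 and 14.4 FPKM in SMA (log2 change -1.11, SE 0.34). Hist1h1b (H1) went from 91.9 and 138 to 64.7 and 45.6 FPKM (log2 change -1.05, SE 0.31). Hist1h3b (H3) went from 21.9 and 30.6 to 16.1 and 10.9 FPKM (log2 change -0.96, SE 0.29). Hist1h1e, the highest H1 gene, stood at 143 and 152 FPKM in control libraries, against 84.1 and 94.9 FPKM in SMA libraries (log2 change -0.72, SE 0.09). Hist3h2ba was the only member whose SMA libraries were both above both control libraries, with 125 and 118 against 114 and 94.6 FPKM.

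**Figure D2:**
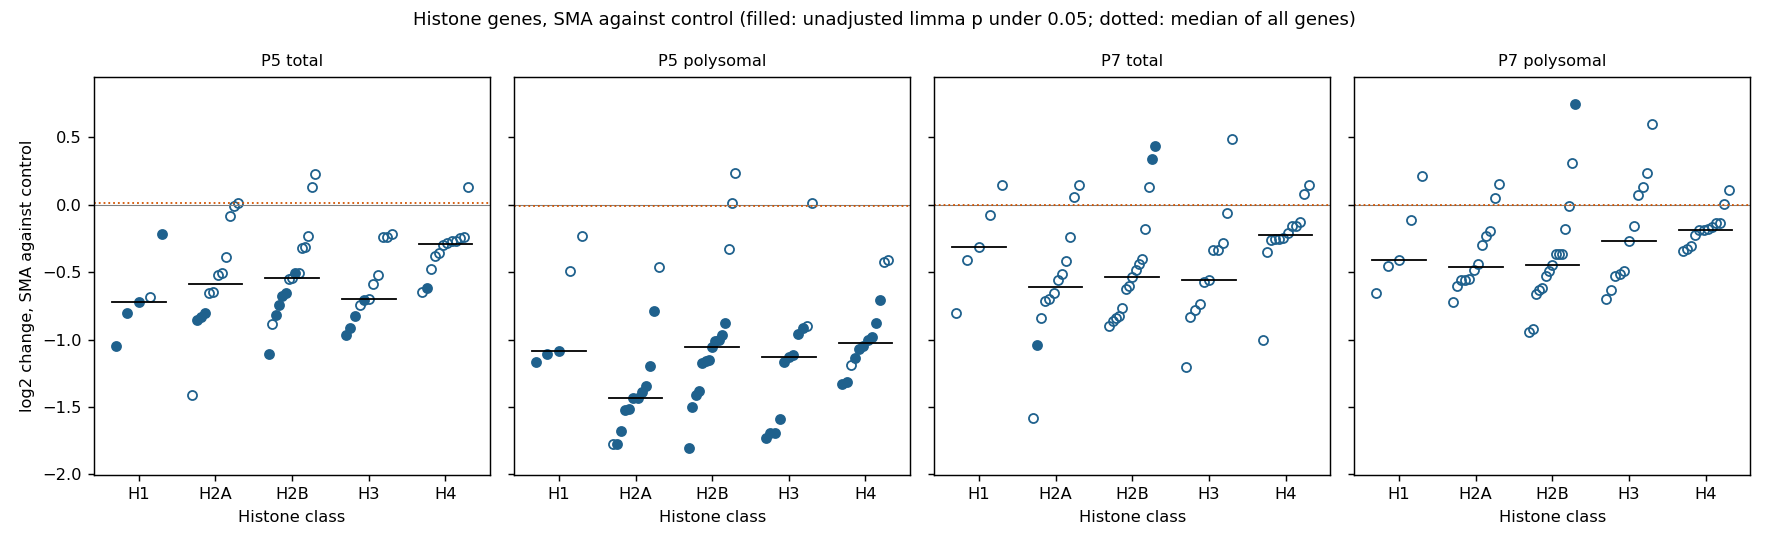
log2 change of each member, SMA against control (y axis), by histone class (x axis) for the 4 genotype comparisons. Filled points have an unadjusted limma p under 0.05, black lines are class medians and the dotted line is the median of all genes tested. In P5 polysomal RNA 43 of 55 points are filled and below 0, in P5 total RNA 18, and at P7 1 in total and 0 in polysomal RNA.

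At P7 no class separated the genotypes. In total RNA, 1 member was called lower (Hist1h2ad) and 2 higher (Hist3h2ba and Hist1h2bc), shares of 1.82% and 3.64% that are below the 4.7% and 4.84% of all genes called. In polysomal RNA, 0 were called lower and 1 higher (Hist3h2ba), against 5.38% and 5.35% of all genes. The median log2 changes were -0.41 in total and -0.32 in polysomal RNA, against 0.00 over all genes in both. Values below 0 were found for 46 and 44 of the 55 members. Both medians stayed below 0 whichever library was left out, but their size depended on single libraries. They ran from -0.64 to -0.10 in total and from -0.65 to -0.02 in polysomal RNA. The total RNA median became -0.10 without SMA replicate 3. The polysomal median became -0.02 without SMA replicate 3 and -0.05 without control replicate 3. The number of members called lower reached 8 in total RNA without SMA replicate 1 and 2 in polysomal RNA without it. Hist3h2ba stood at 85.1, 101 and 104 FPKM in control, against 146, 106 and 142 FPKM in SMA total RNA (log2 change 0.43, SE 0.15, limma adjusted p = 0.48). In polysomal RNA it stood at 116, 74.6 and 126 against 189, 156 and 176 FPKM (log2 change 0.75, SE 0.22, limma adjusted p = 0.36). In both fractions the lowest SMA library was above the highest control library, but the calls in total RNA were lost without control replicate 1 or 2, and the call in polysomal RNA without SMA replicate 1.

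The genotype effect was then compared between stages in a model over all 20 libraries. In polysomal RNA the log2 change of SMA against control was less negative at P7 than at P5 by a median of 0.80 over the members, where the median over all genes was 0.01. Of the members, 7 passed an unadjusted limma p under 0.05 in that direction, against 7.23% of all genes, 0 in the other direction, against 7.52%, and 0 passed adjustment (lowest limma adjusted p = 0.219). In total RNA the median difference was 0.14, and 0 members were called in either direction, where 6.07% and 5.73% of all genes were.

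Single P7 libraries of 1 genotype differed from each other, and the classes did not move alike in every group. In control total RNA, H1 sums were 165, 215 and 295 FPKM in replicates 1, 2 and 3, and H4 sums were 1573, 1827 and 1437 FPKM, so that the library with most H1 had the least H4. In SMA total RNA, H1 sums were 208, 227 and 144 FPKM, H3 sums 70.1, 64.9 and 33.6 FPKM, and H4 sums 1857, 1232 and 1242 FPKM. The H1 share of all histone FPKM thus ranged from 6.61% to 10.05% and the H4 share from 48.9% to 63.0% over the 6 P7 total libraries. The 25 genes of the S phase and proliferation list, which mark cycling cells, summed to 140, 152 and 195 FPKM in the same 3 control libraries, against 130, 152 and 113 FPKM for SMA. In polysomal RNA they summed to 142, 163 and 200 FPKM for control, against 142, 164 and 113 FPKM for SMA, where the H1 sums were 215, 269 and 397 against 282, 295 and 169 FPKM. The H4 sums in polysomal RNA were 1829, 1757 and 2694 FPKM for control, against 2705, 1471 and 1576 FPKM for SMA. Replicate 3 of control polysomal RNA was highest in every class, so that there the library with most H1 also had most H4. Of the 25 genes, 17 had the order of the H1 sums over the 3 control libraries of total RNA and 16 over those of SMA, and 18 and 19 in polysomal RNA. The others, among them Pcna in control total RNA (29.9, 29.6 and 33.5 FPKM), had other orders, and 1 and 1 had that of the H4 sums in total RNA and 4 and 1 in polysomal RNA. The share of all genes with either order was not counted, so these counts have no background to be read against. This likeness of order was noticed in the data and is a description over 3 libraries a group. The part of cycling cells in these differences was not tested.

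**Figure D3:**
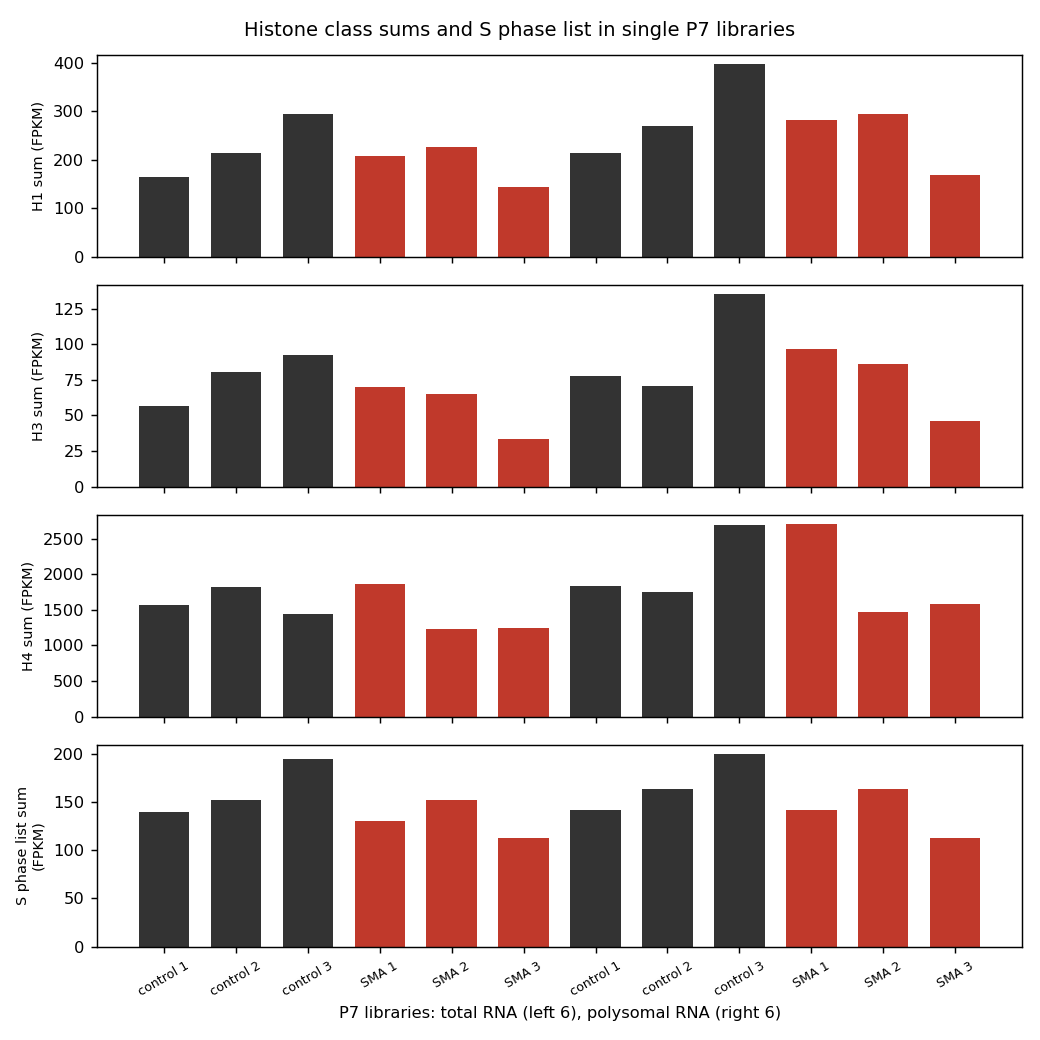
Summed FPKM of H1, H3 and H4 members and of the S phase and proliferation list (y axes, from 0) in each of the 12 P7 libraries (bars), with total RNA left, polysomal RNA right, control dark and SMA red. The H1 sum and the sum of the S phase list have the same order within each group of 3 libraries, which 16 to 19 of the 25 genes of the list share. The share of all genes with that order was not counted. H4 is highest in SMA replicate 1. In control, H4 is lowest in replicate 3 of total RNA and highest in replicate 3 of polysomal RNA.

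Polysome association was read as polysomal against total RNA in control brains. At P5, 40 of 55 members were higher in polysomal RNA and 0 lower at an unadjusted limma p under 0.05, against 12.3% and 13.6% of all genes, with a median log2 difference of 0.86 over the members and 0.02 over all genes. Polysomal libraries stood above total libraries without overlap for 43 members, against 33.9% of all genes. The class order was H2A (median 1.30, 12 of 12 called), H4 (1.02, 9 of 12), H3 (0.85, 8 of 11), H2B (0.83, 9 of 15) and H1 (0.37, 2 of 5). The count fell to 9 without control replicate 1 and to 4 without control replicate 2, where 1 library per fraction was left and was taken to vary like the other groups, while the median stayed at 1.00 and 0.83. Of the members, 3 passed adjustment over all genes, against 0.118% of all genes. They were Hist1h2bj (34.0 and 34.8 FPKM in total, 88.9 and 85.0 FPKM in polysomal RNA, log2 difference 1.33, SE 0.06, limma adjusted p = 0.011), Hist1h2ad (8.56 and 8.10 against 23.5 and 22.6 FPKM, limma adjusted p = 0.022) and Hist1h2ag (8.61 and 8.12 against 19.8 and 20.7 FPKM, limma adjusted p = 0.034).

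The most polysome-associated members in P5 control brains were Hist1h2al (log2 difference 2.63, SE 0.74), Hist1h2bk (1.85, SE 0.18) and Hist1h2ak (1.76, SE 0.20), of which the first and the last are H2A rows with the uncertainties given above. The least associated were Hist2h2be (-0.46, SE 0.24), Hist1h1e (0.02, SE 0.24) and Hist2h4 (0.08, SE 0.16). Hist1h1e stood at 143 and 152 FPKM in total and at 121 and 184 FPKM in polysomal RNA, so that its groups overlapped. In SMA brains at P5 the members were closer to parity. The median log2 difference was 0.28, 8 members were called higher and 0 lower against 5.65% and 6.94% of all genes, and the class medians were 0.46 for H2A, 0.33 for H2B, 0.24 for H4, 0.24 for H1 and 0.17 for H3.

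**Figure D4:**
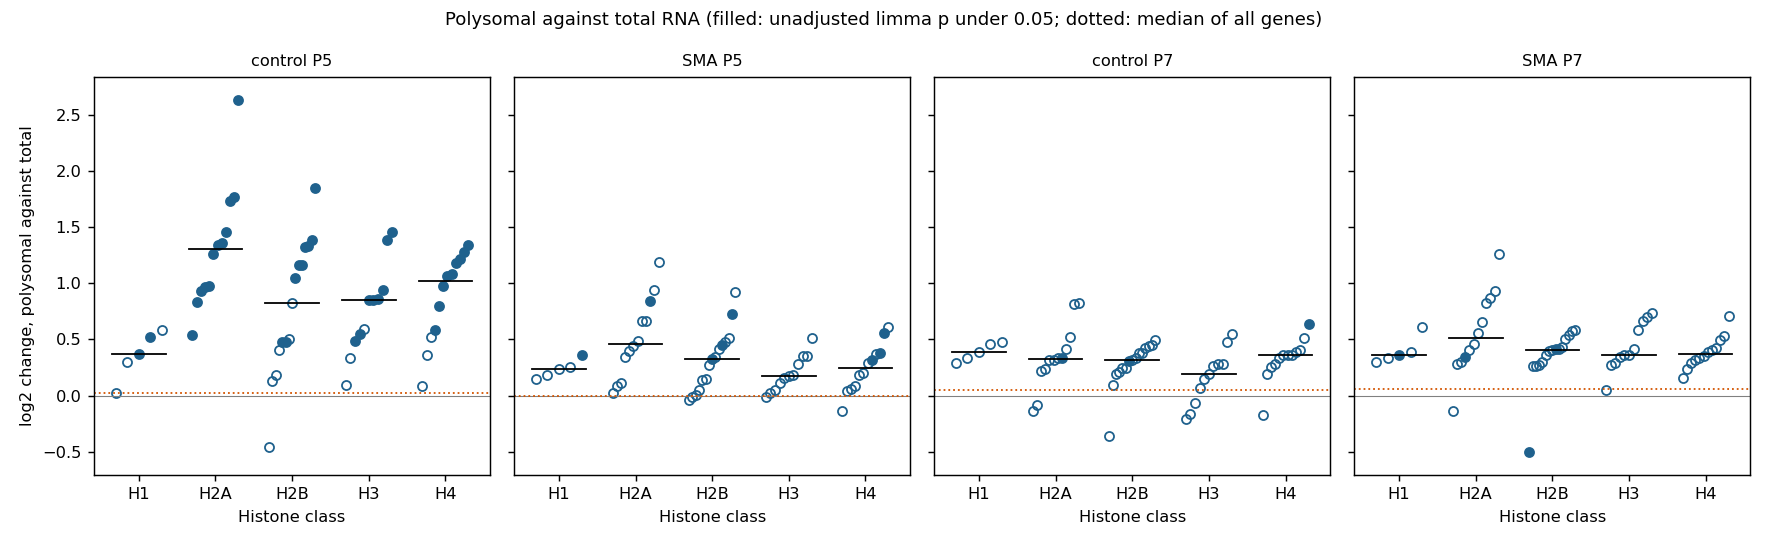
log2 difference between polysomal and total RNA for each member (y axis) by class (x axis), in control and SMA brains at P5 and P7. Filled points have an unadjusted limma p under 0.05, black lines are class medians and the dotted line is the median of all genes tested. The P5 control medians run from 0.37 (H1) to 1.30 (H2A), and those of P5 SMA from 0.17 to 0.46.

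The change in translation efficiency (TE, polysomal against total RNA, SMA against control) at P5 was counted by class. Calls with reduced TE numbered 7 of 15 for H2B, 3 of 11 for H3, 3 of 12 for H4, 2 of 12 for H2A and 0 of 5 for H1, 15 in all, against 1.06% of all genes, and 0 were called with raised TE, against 1.26%. Class medians were -0.84 for H2A, -0.68 for H3, -0.68 for H4, -0.52 for H2B and -0.12 for H1. The interaction was largest among the called members in Hist1h2bk (-1.13, SE 0.28), Hist1h2bj (-0.99, SE 0.29) and Hist1h2ad (-0.97, SE 0.37), each with a limma adjusted p of 1. The P5 control polysomal libraries entered the genotype comparison in polysomal RNA, the comparison of polysomal with total RNA and the change in TE. These are therefore not 3 separate results. The ratio of mean sums over all members, polysomal over total RNA, was 1.63 in P5 control and 1.15 in P5 SMA brains. It was 1.29 in P7 control and 1.33 in P7 SMA brains. The calls with reduced TE used the same P5 control libraries of both fractions as the comparison of polysomal with total RNA. The count was 8, 6 and 8 without control replicate 1, control replicate 2 and SMA replicate 2, was 0 with a single model over all libraries, and was 23 after the length correction. At P7, 0 members were called in either direction, against 0.977% lower and 1.09% higher of all genes, and the class medians lay between 0.00 and 0.19. The median over all members, 0.07, became -0.11 without control replicate 2 and 0.35 without control replicate 3.

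At P7, the median log2 difference between polysomal and total RNA in control brains was 0.32 over the members, against 0.05 over all genes, and the difference from P5 was not tested. It was 0.09 without control replicate 3 and 0.51 without control replicate 2. Called higher were 3 members (Hist3h2a, Hist1h2bc and Hist1h4k), against 14.8% of all genes, and 0 lower, against 10.6%. In SMA brains at P7, 3 were higher (Hist3h2ba, Hist1h1c and Hist3h2a) and 1 lower (Hist2h2be), against 17.7% and 11.9%, with a median of 0.39. In P7 control brains the most associated members were Hist1h2al, Hist1h2ak and Hist1h4k (0.82, 0.82 and 0.64), and the least were Hist2h2be, Hist1h3g and Hist1h4n (-0.36, -0.21 and -0.17). Hist2h2be was the lowest at both stages and its polysomal libraries lay below its total libraries at both, with 1.04, 1.08 and 1.51 FPKM in total and 0.81, 1.03 and 0.89 FPKM in polysomal RNA at P7.

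Total RNA of control brains was then compared between P5 and P7. In control total RNA 20 members were lower at P7 and 3 higher at an unadjusted limma p under 0.05, against 20.1% and 20.1% of all genes, and 12 were lower and 2 higher after adjustment, against 9.46% and 11.8%. All 5 H1 members fell, with a class median of -1.31, as did 6 of 11 H3 members (median -1.23), and 2 of 12 H2A, 2 of 15 H2B and 5 of 12 H4 members were called lower, with medians of -0.31, -0.49 and -0.31. The shares of H2A and H2B members lay below that of all genes. Differences between classes were not tested, and the calls include Hist2h3b among the lower and Hist2h3c2 among the higher, on which the level minimum bears as given below. The median over all members was -0.50, against -0.03 over all genes, and was -0.31 without P7 control replicate 1. Age and any difference in preparation between the stages cannot be told apart.

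The steepest falls were in 3 H3 genes and 1 H4 gene. Hist2h3b went from 15.3 and 12.3 FPKM at P5 to 0.16, 1.08 and 0.39 FPKM at P7 (log2 change -4.70, SE 0.70), in a locus that it shares with Hist2h2bb. It reached the level minimum only through P5 (mean 15.97 FPKM over the P5 and 0.609 FPKM over the P7 libraries), so its fall is a description and its call gives no support. Hist1h3b went from 21.9 and 30.6 to 1.57, 3.03 and 3.17 FPKM (log2 change -3.34, SE 0.38, limma adjusted p = 0.016). Hist1h3h went from 15.97 and 10.5 to 1.08, 1.51 and 1.63 FPKM (log2 change -3.13, SE 0.28, limma adjusted p = 0.012), and Hist1h4k from 101 and 64.6 to 8.03, 13.9 and 10.6 FPKM (log2 change -2.92, SE 0.32, limma adjusted p = 0.016). In all 4 the groups lay far apart, and of the other H3 genes 3 were called lower with smaller changes, among them Hist1h3a from 35.9 and 38.6 to 10.8, 14.99 and 20.2 FPKM and Hist1h3c from 31.6 and 33.3 to 7.74, 9.11 and 13.3 FPKM. Hist1h3b, Hist1h3h, Hist2h3b and Hist1h4k each share 50% or more of their windows with other genes, so that a different division of shared reads between copies at the 2 stages was not tested.
The rises were smaller. Hist2h3c2 went from 0.63 and 0.40 to 2.32, 1.69 and 1.33 FPKM (log2 change 1.60), a description only, since it reached the minimum through P7 alone. Hist1h4n went from 3.64 and 4.61 to 5.72, 7.28 and 7.61 FPKM and Hist1h2bc from 11.5 and 9.63 to 15.8, 15.1 and 15.9 FPKM (log2 change 0.56, limma adjusted p = 0.028). In SMA total RNA, with the same filter, 10 members fell and 2 rose, against 17% and 15.7% of all genes. Hist2h3b (13.5 and 10.2 to 0.71, 0.30 and 1.18 FPKM, with the same limit from the level minimum), Hist1h3b and Hist1h3h had the largest falls there too.

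**Figure D5:**
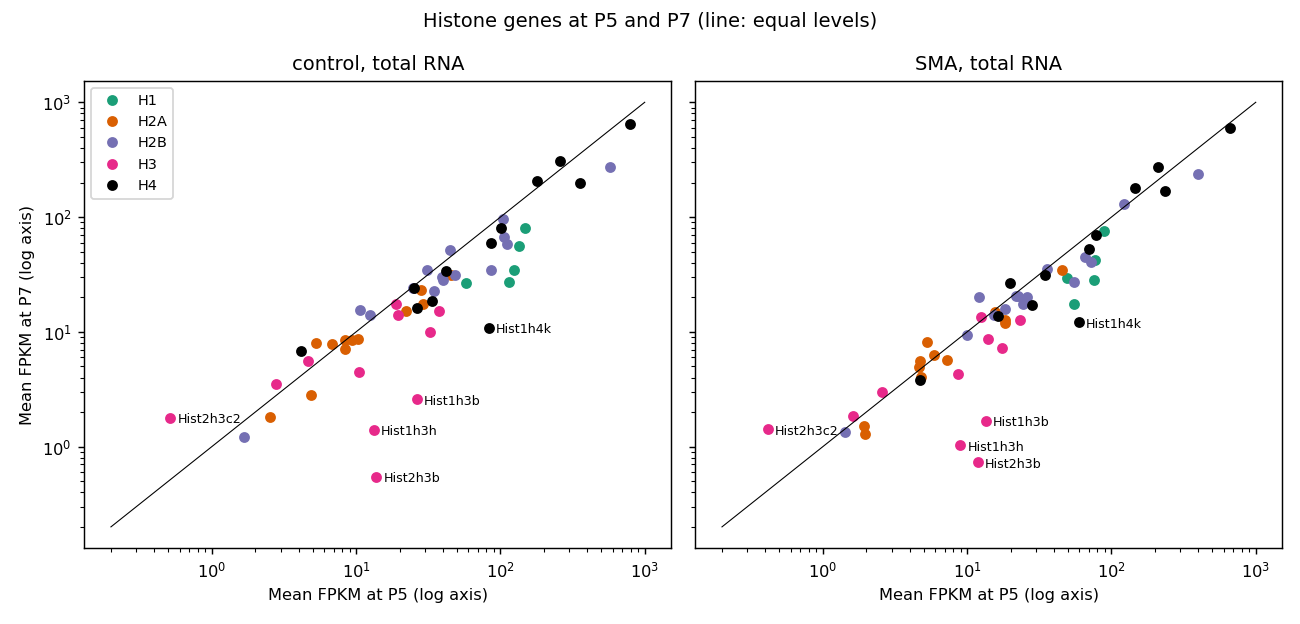
Mean FPKM of each member in total RNA at P5 (x axis, log) and at P7 (y axis, log), in control (left) and SMA (right) brains, coloured by class, with the line of equal levels. Hist2h3b, Hist1h3b, Hist1h3h and Hist1h4k lie furthest below the line in both genotypes, and Hist2h3c2 lies above it.

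Members were also divided by whether the deposited locus (Gencode M6) runs more than 100 bases past the stem-loop, a division chosen after the values had been seen and given as a description only. Of the 33 members with the letters, 11 had such a long body (among them Hist1h1c, Hist3h2a, Hist3h2ba, Hist2h3c2, Hist2h4 and Hist4h4) and 22 had a short one. The division depends on the annotation: in Gencode M21, 8 of the 22 short bodies run more than 100 bases past the stem-loop and 1 of the 11 long ones (Hist1h2bp) does not, and the locus of Hist3h2a is merged with other rows. In P5 total RNA the median log2 change of SMA against control was -0.24 for the long and -0.65 for the short bodies, with 1 of 11 and 12 of 22 called lower, against 3.89% of all genes. In P5 polysomal RNA the medians were -0.87 and -1.18, with 6 of 11 and 18 of 22 called, against 6.82%. In the change in TE at P5 they were -0.61 and -0.64, with 5 of 11 and 7 of 22 called, against 1.06% of all genes. At P7 they were -0.16 and -0.52 in total and 0.11 and -0.44 in polysomal RNA. The differences between long and short bodies were not tested. Members with no letters found, among them the 2 not searched, had medians of -0.54 and -1.16 in P5 total and polysomal RNA. Their medians were -0.59 in TE at P5, and -0.38 and -0.31 in total and polysomal RNA at P7. By shared sequence, the 38 members with under 50% of their windows shared had 28 called lower in P5 polysomal RNA, again against 6.82% of all genes, with a median of -1.06, and the 15 with 50% or more had 13 called, with a median of -1.19.

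Other genes of the same process were set beside the members, from lists of which the count is given for genes that passed the minimum. Of 24 genes of S phase and proliferation, 18 were lower in SMA and 1 higher in P5 polysomal RNA (median -0.63), against 6.82% and 5.65% of all genes, and 9 were lower and 0 higher in P5 total RNA (median -0.58), against 3.89% and 4.36%. Cdk1, the mitotic kinase, had a log2 change of -1.65 (SE 0.09, limma adjusted p = 0.030) in P5 polysomal RNA, and Tyms, thymidylate synthase, of -1.02. The gene called higher, Cdt1, is listed at 0 FPKM in both control libraries of P5 polysomal RNA, against 1.76 and 1.89 FPKM for SMA, as is the abundant Tubb3 (0 and 0 against 986 and 859 FPKM), so that a listed 0 there may be a failed estimate. No member was listed at 0 in any library. The S phase list summed to 203 and 258 FPKM in control, against 150 and 166 FPKM in SMA total RNA at P5, and to 281 and 279 against 177 and 175 FPKM in polysomal RNA, with Pcna as its highest gene. In TE at P5, 0 of the 24 S phase genes were called lower and 1 higher (Cdt1), against 1.06% and 1.26% of all genes, with a median of -0.07, and the difference from the members was not tested. The part of S phase genes in the histone values was not tested.

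Of 20 factors that make or bind histone mRNA, 1 was lower in SMA in P5 total RNA (Lsm10, of the U7 snRNP, log2 change -0.36), against 3.89% of all genes, and 6 in P5 polysomal RNA, against 6.82%, the largest being the Sm proteins Snrpe (-0.53) and Snrpg (-0.51), with list medians of -0.12 and -0.21. Slbp, the stem-loop binding protein, stood at 42.9 and 37.5 FPKM in control, against 30.9 and 29.1 FPKM in SMA polysomal RNA at P5, and at 27.0 and 26.1 against 20.6 and 24.0 FPKM in total RNA. Npat, which activates histone transcription, had 5.98 and 6.08 against 6.53 and 8.19 FPKM in total RNA. At P7, 2 and 1 of the 20 were lower in total and polysomal RNA, Cstf2 in both, against 4.7% and 5.38% of all genes. Of 11 replication-independent histone genes, 2 were lower in P5 total RNA and 5 in P5 polysomal RNA (median -0.40), with Cenpa, the centromeric H3, at -1.11 and -1.07. H2afz, for the variant H2A.Z, stood at 651 and 617.9 against 405 and 459 FPKM in P5 polysomal RNA. None of the 11 was called between genotypes at P7. Of 12 histone chaperone genes, 0 and 2 were lower at P5 in total and polysomal RNA, with Chaf1a, a subunit of the replication-coupled chaperone CAF-1, at -0.44 in the latter. In the P5 to P7 comparison of control total RNA, where 20.1% of all genes were called in each direction, 8 of those 12 were lower and 0 higher (median -0.32), 7 of 11 replication-independent histones were lower and 1 higher (median -0.59), and 7 of 24 S phase genes were lower and 1 higher (median -0.61).

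Some markers of other cell types moved with the genotype as well. Of all genes, 3.89% were called lower and 4.36% higher in P5 total RNA, and 6.82% and 5.65% in P5 polysomal RNA. At P7 the shares were 4.7% and 4.84% in total and 5.38% and 5.35% in polysomal RNA. All 3 endothelial markers were lower in SMA in P5 total RNA (median -0.63) and 2 of 3 in polysomal RNA, with sums of 65.8 and 57.7 FPKM in control against 27.8 and 27.7 FPKM in SMA total RNA and of 122 and 79.0 against 43.3 and 32.2 FPKM in polysomal RNA. Cldn5, the tight junction protein and the highest of them, fell at both stages, and all 3 were also lower at P7 in both fractions, where the histone classes overlapped between genotypes. Barhl1, of cerebellar granule neuron progenitors, stood at 4.19 and 5.38 against 2.95 and 3.05 FPKM in P5 total RNA, while Atoh1 stayed under the minimum with 0.57 and 1.46 against 0.67 and 0.69 FPKM. At P7 Atoh1 stood at 0.02, 0.2 and 0.51 FPKM in control, against 0.85, 1.08 and 0 FPKM in SMA total RNA. In polysomal RNA it stood at 0.01, 0.22 and 0.4 against 0.64, 0.91 and 0.01 FPKM. Barhl1 stood at 0.66, 2.4 and 4.24 against 3.37, 3.96 and 3.16 FPKM in P7 total RNA. Its P7 polysomal values were 0.62, 2.42 and 4.11 against 4.1, 3.16 and 2.22 FPKM. The part of these cells in the differences between P7 libraries was not tested. The 4 neural progenitor markers had no member called lower at P5 and 1 called higher in polysomal RNA (Dcx). Their medians at P5 were below 0, with -0.28 in total and -0.15 in polysomal RNA. Nes stood at 4.59 and 4.65 against 3.90 and 3.63 FPKM in P5 total RNA. Of 3 microglial markers P2ry12 was called lower in P5 total, P5 polysomal and P7 total RNA, where the list medians were -0.01, 0.05 and -0.16. Among 3 astroglial markers Fabp7 was called lower in P5 total, P7 total and P7 polysomal RNA. There the list medians were above 0, with 0.08, 0.09 and 0.07. Among 3 oligodendrocyte precursor markers 2 (Cspg4 and Pdgfra) were called higher in P5 total RNA (list median 0.30). Other markers of these lists went the other way in P5 total RNA. Csf1r (microglia) and Slc1a3 (astroglia) were higher in SMA and Olig1 (oligodendrocyte precursors) lower, without overlap but not called. Of 4 neuronal markers Map2 was higher in total RNA at both stages, where the list medians were -0.11 at P5 and -0.05 at P7. Snap25 was lower in SMA in P5 total RNA (217 and 222 against 182 and 200 FPKM) but was not called. Of 5 erythroid and 2 oligodendrocyte markers, none was called between genotypes at P5 and 1 (Hbb-bt) was lower in P7 polysomal RNA. Of 80 ribosomal protein genes, which also have short mRNAs, 30 were lower and 1 higher in P5 polysomal RNA (median -0.40), against 6.82% and 5.65% of all genes. In P5 total RNA 0 were called (median -0.30). In control brains at P5, 60 of the 80 were lower and 1 higher in polysomal than in total RNA (median -0.74), against 13.6% and 12.3% of all genes. This direction was opposite to that of the histone members. The part of cell composition in the histone values was not tested.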

How the data were processed

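Per the labels and the study's methods, stranded total RNA libraries were aligned to GRCm38.p4 with TopHat2 2.0.14 and the authors deposited Cufflinks 2.2.1 values in FPKM for Gencode M6 genes; the depth behind a single value is unknown, since the table holds no counts, and strand use and the handling of multiply mapped reads are given only as default settings. Values were tested as log2(FPKM + 0.1) with limma 3.58.1 (R 4.3.3, eBayes with a trend) within the groups compared, for genes with a mean of 1 FPKM or more, with Benjamini-Hochberg adjustment over all 15247. The authors' count-based tests could not be run on FPKM. The call is an unadjusted p under 0.05, after the study's threshold. The script was tested on simulated data. Each library is labelled as from a mouse brain, but no source used here says which libraries share an animal, so p-values measure only the spread between libraries, which may in part be technical. Members, lists and tests were chosen with earlier results of these data known.

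Named members are, by rule, the 3 highest of each class, every Hist3 and Hist4 member, the highest Hist2 member of a class, Hist1h2al, up to 3 called members with non-overlapping groups and the largest change per comparison and direction, every member passing adjustment, the 3 most and least polysome-associated, and those next to the minimum; Hist1h3e and the remaining uncalled members were named after their values were seen. Of each other list, the highest gene and up to 2 called genes per direction were eligible; Npat, Atoh1 and Alb were chosen after their values were seen. Alternatives were a pseudocount of 1, no filter, equal library medians, a lowess length correction (span 0.3), a single model, the replicate block, no trend, adjusted p and leaving out libraries. Tut7 was not analysed here. Deposited loci, which start at 0, are printed 1-based.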

Additional observations from a re-analysis of the deposited data

Results flagged for a closer look

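The log2 change of SMA against control in polysomal RNA differed between stages for 7 members at an unadjusted limma p under 0.05 (stage by genotype interaction over all 20 libraries), and none passed adjustment over all genes. P7 minus P5, the difference was 1.81 for Hist1h3h, 1.26 for Hist1h3e, 1.07 for Hist3h2ba, 0.95 for Hist1h4f, 0.88 for Hist4h4, 0.82 for Hist2h2bb and 0.62 for Hist3h2a. In each the P5 change was the more negative, and 7.23% of all genes were called in this direction. The groups, of 2 or 3 libraries, were too small for a test of single outlying libraries.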

How the results depend on the processing

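Equal library medians, a pseudocount of 1 and a fit with no trend left all 27 results (the members called lower and higher and the median, in 9 comparisons) within 1.5 times the count or 1 SD between replicates of the median. With adjusted p in place of unadjusted p, the counts became 0 for lower members in P5 total, P5 polysomal and P5 TE, 0 and 0 at P7 in total RNA, 0 for higher members in P7 polysomal RNA, 3 and 0 for polysomal against total RNA in control at P5 and P7, and 12 for members lower at P7 than at P5. With no filter, 10 members were lower in P5 total RNA and 1 was higher in P7 total RNA. The single model over 20 libraries gave 1 lower in P5 total RNA, 4 lower and 1 higher in P7 total RNA and 0 with reduced TE at P5. The length correction gave 1 higher in P5 total RNA and 23 with reduced TE at P5.

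With the replicate number as a block, 23 members had reduced TE at P5, 12 were higher in polysomal than in total RNA of P7 controls (21.8% of members, against 17.4% of all genes, where without the block the share was below that of all genes), 1 was higher in P7 total RNA and 1 lower in P7 polysomal RNA. With the block and the length correction together, 31 had reduced TE at P5, 1 had raised TE at P7, 12 were higher in polysomal RNA of P7 controls, 1 was higher in P5 total RNA, 1 higher in P7 total RNA and 1 lower in P7 polysomal RNA. No source used here says that libraries of the same number came from the same mouse, and over all genes their deviations correlated by between -0.0391 and 0.109. Over the members alone the range was -0.0758 to 0.829, with the highest values in the P7 SMA libraries. As a hint from the data, Mbp was lowest in replicate 1 of the P7 controls in both fractions (68.1, 172 and 184 FPKM in total, 83.6, 208 and 191 FPKM in polysomal RNA) and in replicate 3 of P7 SMA in both (215, 188 and 109 FPKM, and 267, 218 and 115 FPKM).

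Leaving out 1 library, or 1 replicate number in both fractions, at a time gave 10 to 19 lower and 0 to 1 higher in P5 total RNA, 0 to 1 higher in P5 polysomal RNA, 0 to 8 lower and 0 to 3 higher in P7 total RNA, and 0 to 2 lower and 0 to 2 higher in P7 polysomal RNA. It gave 6 to 13 with reduced TE at P5 and 0 to 1 with raised TE at P7. For polysomal against total RNA it gave 0 to 1 lower and 4 to 9 higher in control at P5, and 0 to 1 lower and 1 to 7 higher at P7. Between stages it gave 2 to 6 members higher at P7, of which the 6 came without P7 control replicate 1. Where 1 library per group was left, it was taken to vary like the other groups. The depth behind single FPKM values is unknown, and 2 libraries per group limit every P5 result.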
